A study of Rattus norvegicus with 22 samples.

Results

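The Myc and Mlx network is a family of basic helix-loop-helix leucine zipper transcription factors, and its levels were read here in rat liver after GSK932121A. The set was defined by name, as the genes Myc, Max, Mxd1, Mxd3, Mxd4, Mnt, Mga, Mlxip and Mlxipl. A gene counted as measured where a probe set carried its symbol and no other, and where there were several, the one with the highest mean over the 22 arrays was taken. By this rule 7 of the 9 members were measured, among 18166 genes in all. The 1 probe set of Max also carries the symbol of a Max pseudogene and was not used, and Mlxipl was not analysed here. Mlx, Mxi1, Mycn and Mycl, which belong to the same network and were outside the 9, are given beside the members.

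Each of 22 Affymetrix whole-transcript arrays was hybridised with RNA from the snap-frozen median liver lobe of 1 female rat of the outbred stock Crl:CD(SD), aged 12 weeks by the sample labels. In the GSK932121A group, 10 rats had received 1 intraperitoneal dose of 50 mg/kg of a compound that the series title names as an inhibitor of mitochondrial complex III, and their livers were collected 5 hours later. In the vehicle group, 12 rats had received the same formulation (mannitol, hydroxypropylmethylcellulose and sodium dodecyl sulphate in water) without the compound, at the same volume of 10 mL/kg, and the labels give no collection time for them. The submitters had dosed 12 rats per group and left out 2 treated rats with low plasma exposure. Values are RMA log2 values, which are background-corrected, normalised between arrays and summarised per probe set. One unit is a doubling of signal, and values of different genes cannot be ranked against each other because probe sets differ in response.

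Array medians over all probe sets lay between 4.73 and 4.85, arrays correlated with one another across genes at 0.971 to 0.990, and 0 pairs of arrays were identical. The hepatocyte marker albumin (Alb) averaged 13.38 ± 0.04 in the GSK932121A livers and 13.41 ± 0.03 in the vehicle livers (SD, n = 10 and 12). Both means lie close to the highest value of any probe set (13.77), so their likeness does not show that hepatocyte content was alike. Of all 18166 genes, 2244 (12.4%) passed the test used throughout, limma with Benjamini-Hochberg adjustment over all genes and an adjusted p under 0.05. Of these, 964 genes (5.31% of all) were higher and 1280 (7.05%) were lower after GSK932121A, and the median log2 difference of all genes was -0.01. In a piece of liver, fewer cells of a type and less RNA per cell cannot be told apart.

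Myc is an activator that binds DNA only as a pair with Max, and the pair drives genes of ribosome production, nucleotide and polyamine synthesis and cell division. Mnt, the Mxd proteins, Mxi1 and Mga also pair with Max and occupy the same E-box, a short palindrome, and Mnt, the Mxd proteins and Mxi1 repress through the SIN3 corepressor. In a parallel branch, Mlxip (MondoA) and Mlxipl (ChREBP) pair with Mlx and activate genes of sugar and lipid metabolism in response to glucose phosphates, with ChREBP being the form best known in liver. Mlx can also pair with Mnt, Mxd1 and Mxd4, which links the branches.

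The E-box shared by Myc and the other partners of Max was searched for in RefSeq promoter windows of the GRCr8 assembly. The windows run from 250 bases before to 50 bases after each annotated start. The motif was CACGTG, which reads the same on both strands, and no other motif was searched. Windows were matched for 11 of the 13 network genes (all but Myc and Mycn), and 4 of these 11 (36.4%) held the motif, against 1943 of 27457 genes with a window (7.08%) and 1189 of 14564 genes that were also measured here (8.16%). The 4 were Mnt, Mxd4, Max and Mlx. No match lay in the windows of Mxd1, Mxd3, Mga, Mlxip, Mlxipl, Mxi1 and Mycl. A match is a description of the letters and no evidence of binding.

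The promoter windows of Mnt and Mxd4, members that changed in opposite directions below, are printed whole, 5′ to 3′ on the gene's strand, with the motif in capitals. The Mnt window lies at chr10:60197709-60198008 on the plus strand, and its motif begins 123 bases before the start. The Mxd4 window lies at chr14:80786531-80786830 on the plus strand, and its motif begins 197 bases before the start.
Mnt: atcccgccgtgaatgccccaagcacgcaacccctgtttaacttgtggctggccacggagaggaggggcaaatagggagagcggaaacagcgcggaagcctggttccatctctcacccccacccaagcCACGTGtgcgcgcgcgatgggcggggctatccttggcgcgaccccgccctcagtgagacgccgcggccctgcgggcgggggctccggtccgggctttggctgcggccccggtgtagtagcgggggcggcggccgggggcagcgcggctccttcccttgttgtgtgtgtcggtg
Mxd4: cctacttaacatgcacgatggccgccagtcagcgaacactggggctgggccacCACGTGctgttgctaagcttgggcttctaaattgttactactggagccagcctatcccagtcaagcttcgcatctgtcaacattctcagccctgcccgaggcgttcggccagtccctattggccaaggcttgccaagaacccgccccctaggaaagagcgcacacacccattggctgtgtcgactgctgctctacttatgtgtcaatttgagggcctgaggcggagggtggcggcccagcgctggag

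Shorter windows of 46 bases centred on the motif are shown for the obligate partners Max and Mlx and for 3 known targets that rose, so that the flanks of the motif can be compared. Max lies at chr6:101395298-101395343 (minus strand, motif 33 bases before the start) and Mlx at chr10:86519796-86519841 (plus strand, 70 bases before). Arrdc4, a MondoA target, lies at chr1:131793577-131793622 (minus strand, 177 bases before), Bhlhe40 at chr4:143174210-143174255 (plus strand, 220 bases before) and Gnl3, a nucleolar Myc target, at chr16:6219782-6219827 (minus strand, 25 bases before).
Max: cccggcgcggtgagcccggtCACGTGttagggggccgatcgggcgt
Mlx: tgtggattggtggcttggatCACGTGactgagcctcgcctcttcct
Arrdc4: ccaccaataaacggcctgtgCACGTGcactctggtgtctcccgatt
Bhlhe40: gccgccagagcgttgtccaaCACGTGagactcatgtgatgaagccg
Gnl3: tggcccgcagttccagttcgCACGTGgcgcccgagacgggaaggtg

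Across the network, the comparison of GSK932121A with vehicle asked which factors changed in the liver. Of the 7 measured members, 2 rose (Myc and Mnt), 1 fell (Mxd4) and 4 did not pass, against 12.4% of all genes called, 5.31% upward and 7.05% downward. Among the 4 other network genes Mxi1 fell and the rest did not pass. The median log2 difference of the 7 members was 0.09, against -0.01 for all genes.

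**Figure D1:**
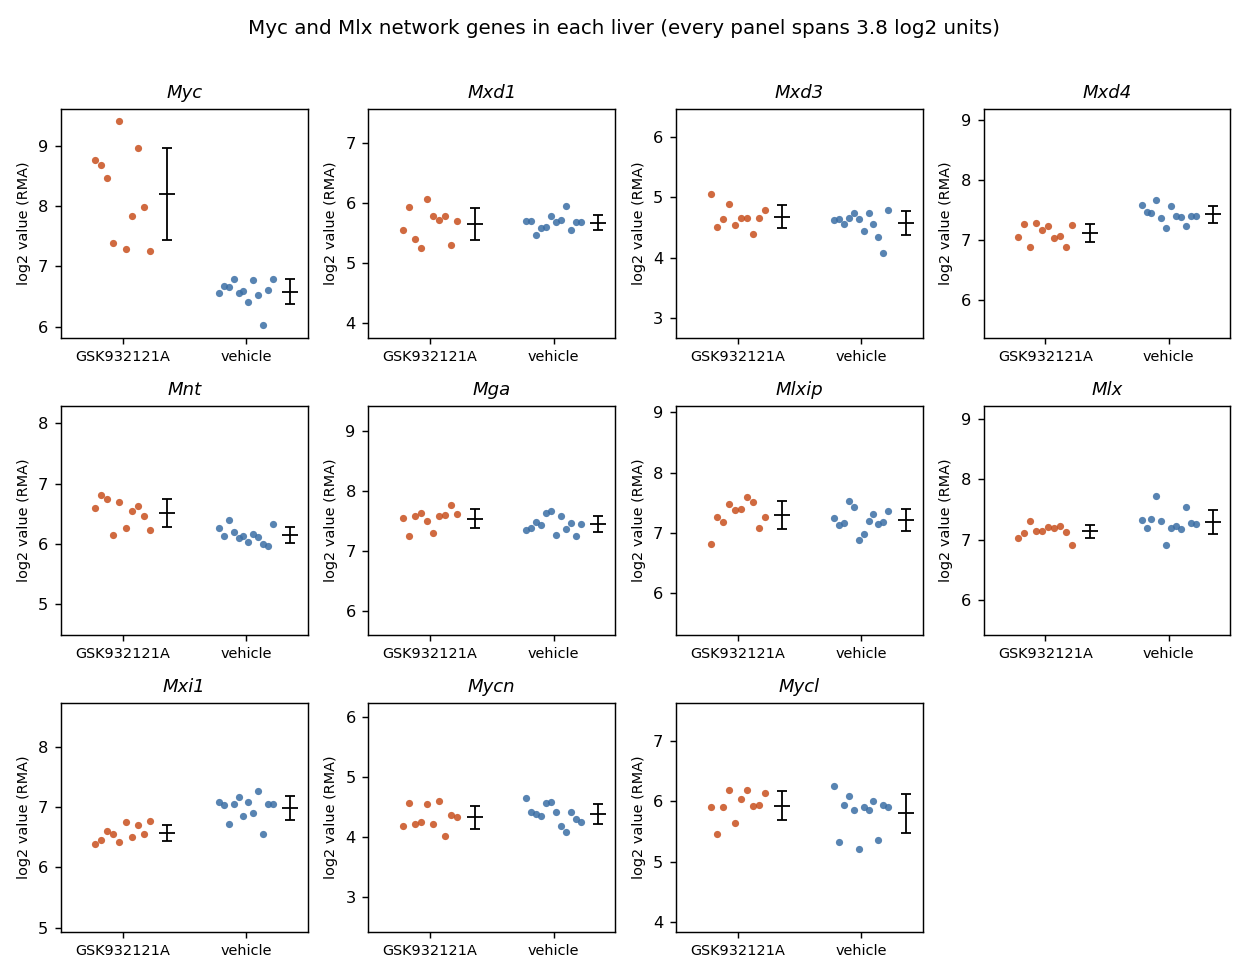
RMA log2 values of the 7 measured members and 4 other network genes in each liver, with GSK932121A (10 rats, orange) left of vehicle (12 rats, blue) in each panel. Bars show the mean and SD, each panel has its own axis of the same length, and Myc is the gene whose GSK932121A values all lie above its vehicle values (7.25 to 9.41, against 6.02 to 6.79).

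Myc had the largest difference among the measured network genes. Its log2 value was 7.25 at the lowest, 8.23 at the median and 9.41 at the highest in the 10 GSK932121A livers, against 6.02, 6.60 and 6.79 in the 12 vehicle livers. All 10 treated livers lay above the highest vehicle liver, so the groups did not overlap. The treated livers were also spread more widely, with a mean of 8.20 ± 0.76 in the GSK932121A group and 6.58 ± 0.21 in the vehicle group (SD, n = 10 and 12). The difference was 1.63 on the log2 scale (standard error 0.21, 95% interval 1.20 to 2.05), a 3.09-fold rise (limma, adjusted p = 4.99e-06). By the Welch test, which does not assume equal spread in the groups, the adjusted p of Myc was 0.00267. With 5 surrogate variables, covariates estimated from the data by limma, the rise was 0.92 (adjusted p = 0.00539). These variables held 45.5% of the variance of the group term.

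Mnt, the most widely expressed of the Max-binding repressors, rose with a much smaller difference. Its values were 6.14, 6.57 and 6.82 (lowest, median, highest) after GSK932121A, against 5.96, 6.13 and 6.40 after vehicle. In 7 of the 10 treated livers Mnt lay above every vehicle liver, and the other 3 lay inside the vehicle range. The mean was 6.51 ± 0.23 after GSK932121A and 6.15 ± 0.13 after vehicle, a 1.28-fold rise (log2 difference 0.36, 95% interval 0.20 to 0.52, limma adjusted p = 0.0028). The call was lost with 5 surrogate variables, where the difference was 0.13 (adjusted p = 0.509).

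Mxd4, a SIN3-binding Max partner associated with differentiated cells, moved the other way. Its values were 6.89, 7.12 and 7.28 after GSK932121A, against 7.19, 7.40 and 7.67 after vehicle. The ranges overlapped between 7.19 and 7.28, and 6 treated livers lay below the lowest vehicle liver. The mean was 7.11 ± 0.15 after GSK932121A and 7.42 ± 0.14 after vehicle, which is 1.24-fold lower (log2 difference -0.31, 95% interval -0.45 to -0.17, limma adjusted p = 0.00209). With 5 surrogate variables the difference was -0.26 and the adjusted p 0.0676.

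Mxi1, the fourth SIN3-binding member of the Mxd family, was outside the 9 genes and fell in the same direction as Mxd4. Its values were 6.40, 6.55 and 6.76 after GSK932121A, against 6.55, 7.05 and 7.26 after vehicle, and 5 treated livers lay below the lowest vehicle liver. The mean of 6.57 ± 0.13 after GSK932121A was 1.33-fold lower than 6.99 ± 0.20 after vehicle (log2 difference -0.41, 95% interval -0.57 to -0.26, limma adjusted p = 0.000415). A second Mxi1 probe set averaged 5.74 ± 0.12 after GSK932121A and 6.09 ± 0.19 after vehicle, a difference of -0.35. The call of Mxi1 was lost with 5 surrogate variables (adjusted p = 0.0536).

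Mxd1 and Mxd3, the remaining Mxd genes, did not pass. Mxd1, known for its rise during terminal differentiation of blood and skin cells, had values of 5.25, 5.71 and 6.07 after GSK932121A, against 5.47, 5.68 and 5.95 after vehicle. Its treated livers reached past both ends of the vehicle range, with 1 above it and 3 below it, and the difference of means was -0.02 (95% interval -0.20 to 0.15, limma adjusted p = 0.908). The SD of Mxd1 was 0.27 after GSK932121A and 0.12 after vehicle. Mxd3, a form associated with proliferating cells, had values of 4.39, 4.66 and 5.06 after GSK932121A, against 4.08, 4.63 and 4.78 after vehicle (difference 0.11, 95% interval -0.06 to 0.29, adjusted p = 0.453). Both Mxd3 means, 4.68 and 4.57, were below the medians of all 22 arrays over all probe sets, a range of signal in which RMA compresses differences.

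Mga, a large protein that carries both a Max-pairing domain and a T-box and belongs to a Polycomb repressor complex, overlapped between groups. It had 7.26, 7.58 and 7.77 after GSK932121A, against 7.25, 7.44 and 7.66 after vehicle. The difference was 0.09 (95% interval -0.04 to 0.23, limma adjusted p = 0.431), so a change of more than 0.23 lay outside the interval.

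In the Mlx branch, Mlxip was the 1 measured glucose-responsive factor. Its values were 6.81, 7.32 and 7.60 after GSK932121A, against 6.88, 7.19 and 7.53 after vehicle, with a difference of 0.08 (95% interval -0.10 to 0.26, limma adjusted p = 0.623). Mlx, its partner, had 6.91, 7.14 and 7.30 after GSK932121A, against 6.90, 7.27 and 7.73 after vehicle. Its mean difference was -0.15, and an adjusted p of 0.204 did not pass (95% interval -0.31 to -0.00). Both genes therefore stood inside overlapping ranges, while the test does not show that they were equal.

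The Myc paralogues Mycl and Mycn did not pass. Mycl had 5.45, 5.93 and 6.19 after GSK932121A, against 5.21, 5.91 and 6.26 after vehicle (difference 0.13, limma adjusted p = 0.559). Mycn, best known from embryonic and neural tissue, had 4.01, 4.29 and 4.60 after GSK932121A, against 4.08, 4.40 and 4.64 after vehicle (difference -0.05, adjusted p = 0.744). Its means of 4.33 and 4.38 were below the medians of all arrays.

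**Figure D2:**
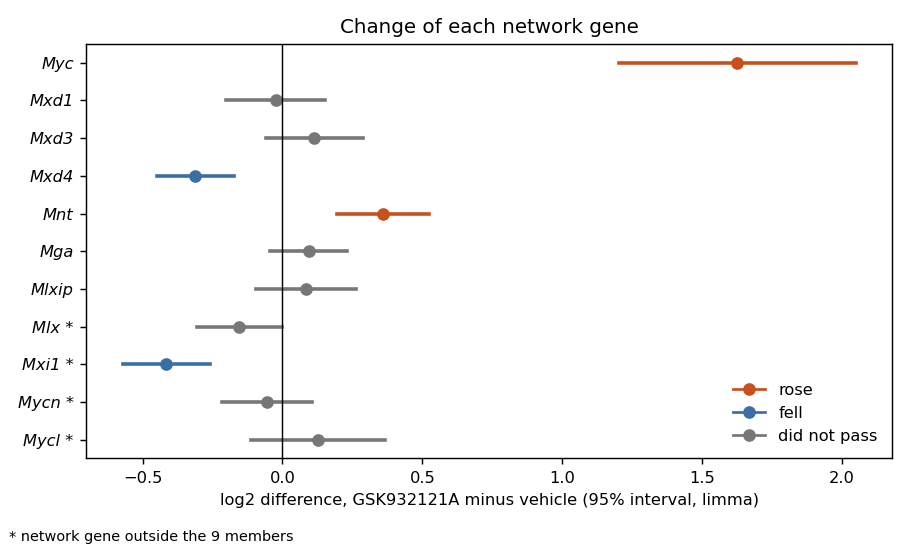
Log2 difference between GSK932121A and vehicle for each measured network gene (points, GSK932121A minus vehicle), with 95% limma intervals as lines and genes outside the 9 marked by an asterisk. Myc (1.63) and Mnt (0.36) rose, Mxd4 (-0.31) and Mxi1 (-0.41) fell, and the other intervals span 0 except that of Mlx, which ends at -0.00.

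These factors compete for Max, and the changes of pairs of members were compared directly. For each array the log2 value of one member was subtracted from that of the other, and the groups were compared by an exact two-sided permutation test over all 646646 regroupings, adjusted over the 5 pairs computed. The sign of such a difference says only that a pair of probe sets changed unequally. Myc minus Mnt averaged 1.70 ± 0.58 after GSK932121A and 0.43 ± 0.18 after vehicle, so Myc rose by 1.27 more than Mnt (exact permutation p = 1.55e-06, the smallest that the regroupings can give, adjusted p = 3.87e-06). Myc minus Mxd1 averaged 2.55 ± 0.68 after GSK932121A and 0.90 ± 0.23 after vehicle, a difference of 1.65 (exact permutation p = 1.55e-06, adjusted p = 3.87e-06). In both pairs all 10 treated livers lay above the highest vehicle liver, as they did for Myc alone. Mxd1 alone differed by -0.02, so Myc minus Mxd1 largely restates the rise of Myc (1.63). The pairs were chosen with earlier results of these data known.

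Within the Mxd family the changes were also unequal. Mxd3 minus Mxd4 averaged -2.43 ± 0.24 after GSK932121A and -2.86 ± 0.23 after vehicle, a difference of 0.42 with 6 treated livers above every vehicle liver (exact permutation p = 0.000289, adjusted p = 0.000482). Mxd1 minus Mxd4 averaged -1.46 ± 0.24 after GSK932121A and -1.75 ± 0.20 after vehicle, a difference of 0.29 with 4 treated livers above the vehicle range (exact permutation p = 0.0072, adjusted p = 0.00901). Mxd4 thus differed in its change from Mxd1 and Mxd3, of which Mxd3 lay in the range of signal that RMA compresses. Mxi1, which fell as Mxd4 did (-0.41 and -0.31), was not part of a pair. Mxd1 minus Mxd3 averaged 0.97 ± 0.41 after GSK932121A and 1.11 ± 0.23 after vehicle, a difference of -0.14 that did not pass (exact permutation p = 0.325, adjusted p = 0.325).

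**Figure D3:**
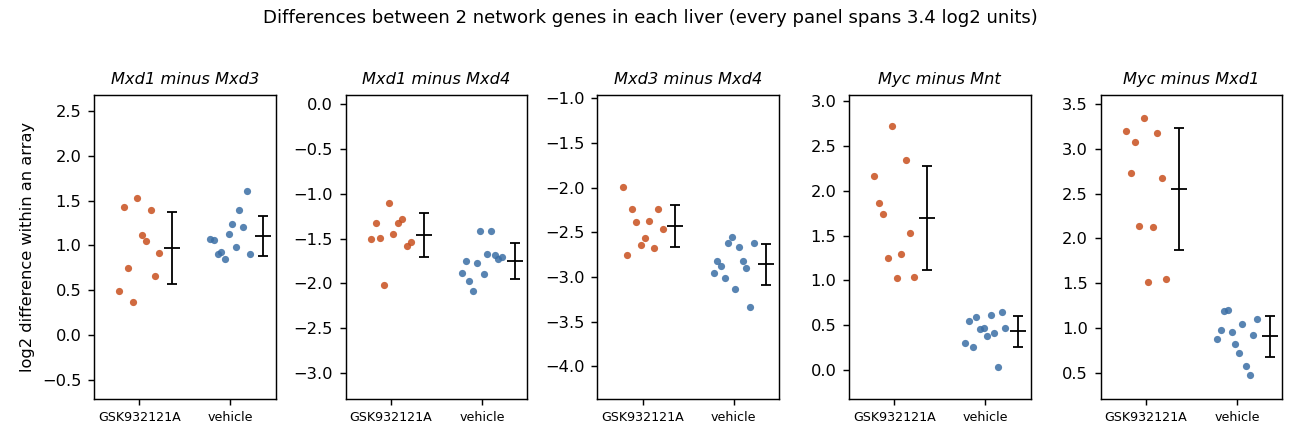
Log2 difference between members of 5 pairs within each array, with GSK932121A (10 rats, orange) left of vehicle (12 rats, blue) and bars for the mean and SD. Myc minus Mnt (1.02 to 2.72 after GSK932121A, 0.02 to 0.64 after vehicle) and Myc minus Mxd1 (1.51 to 3.34 after GSK932121A, 0.47 to 1.21 after vehicle) separate the groups, and Mxd1 minus Mxd3 overlaps.

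Whether members varied together from rat to rat was examined within each group, over 21 pairs in 2 groups (42 relations, permutation tests with 100000 resamples). None passed after adjustment over the 42. Unadjusted, 4 Pearson and 7 Spearman relations had a p under 0.05. The highest was that of Myc and Mnt in the GSK932121A livers, with Pearson r = 0.850 (permutation p = 0.00236, adjusted p = 0.0991) and Spearman rho = 0.770 (permutation p = 0.0126, adjusted p = 0.256, n = 10). Without the 2 livers farthest from the Myc median, r was 0.844 over the other 8. In the vehicle livers r was 0.564 (permutation p = 0.0566, adjusted p = 0.459), rho was 0.643 (permutation p = 0.0287, adjusted p = 0.256, n = 12), and r without the 2 farthest livers was 0.376.

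**Figure D4:**
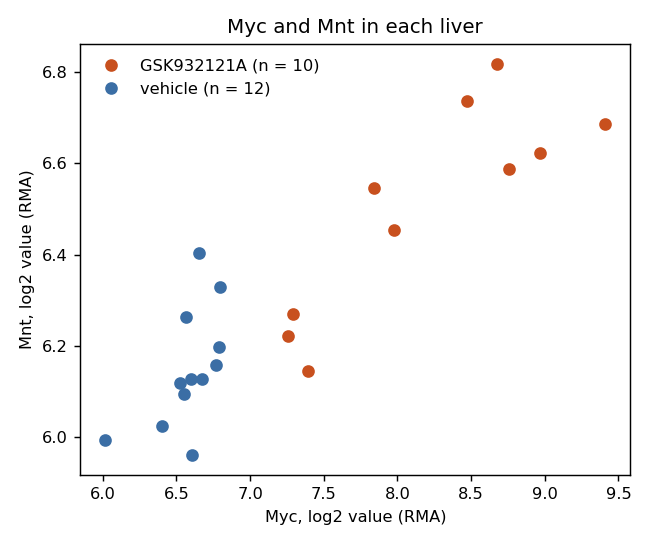
Mnt against Myc, both as RMA log2 values, in each GSK932121A liver (orange, n = 10) and vehicle liver (blue, n = 12). Within the GSK932121A livers r was 0.850 and within the vehicle livers 0.564, and neither passed after adjustment over 42 relations.

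The 5 genes whose pattern was most like that of Myc were chosen by the smaller of the Pearson r over the 10 GSK932121A livers and the r over the 12 vehicle livers. They are a description without a test, since they were picked for this likeness out of all genes. Usp22, a deubiquitinase of the SAGA coactivator, had r = 0.862 after GSK932121A and 0.789 after vehicle, and Sema6b, a semaphorin, had 0.815 after GSK932121A and 0.787 after vehicle. Trib1, a pseudokinase adaptor of the COP1 ubiquitin ligase, had 0.912 after GSK932121A and 0.750 after vehicle. Zrsr2-ps1 had 0.739 after GSK932121A and 0.723 after vehicle, and Apbb3 had 0.802 after GSK932121A and 0.712 after vehicle. Trib1 averaged 8.46 ± 1.05 after GSK932121A and 6.55 ± 0.36 after vehicle.

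The known targets of the network were then counted, as lists drawn from general knowledge of Myc and ChREBP biology. Earlier results of these data were known when the lists were chosen, so the counts here and below are a description. Of 22 measured nucleolar and ribosome biogenesis genes that Myc is known to induce, 14 rose and 0 fell, where 5.31% of all genes rose and 7.05% fell. Their median log2 difference was 0.34, against -0.01 for all genes. With 5 surrogate variables 5 were called, when 603 of all 18166 genes were. The mean over these genes lay between 6.18 and 6.70 in the GSK932121A livers, against 5.90 to 6.16 in the vehicle livers. Wdr43, a small-subunit processing factor, was 7.52 ± 0.33 after GSK932121A and 6.71 ± 0.30 after vehicle (difference 0.81, limma adjusted p = 5.69e-05), with 9 treated livers above the vehicle range. Gnl3, whose E-box window is printed above, was 7.66 ± 0.41 after GSK932121A and 6.88 ± 0.17 after vehicle (difference 0.79, adjusted p = 6.59e-05). Nop58 and Ddx21, which act in small nucleolar ribonucleoproteins and in rRNA transcription, differed by 0.71 (adjusted p = 0.000374) and 0.66 (adjusted p = 4.09e-06). The motif CACGTG lay in the windows of 8 of the 22 listed genes with a window (36.4%) and of 4 of the 11 that rose and had one (36.4%).

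Of 26 other genes that Myc is known to induce, 6 rose, 0 fell and 20 did not pass, with a median of 0.09, where 5.31% of all genes rose. With 5 surrogate variables 3 were called, when 603 of all 18166 genes were. Odc1, the first enzyme of polyamine synthesis and a textbook Myc target, was 7.64 ± 0.24 after GSK932121A and 6.88 ± 0.29 after vehicle (difference 0.76, limma adjusted p = 2.42e-05), with 8 treated livers above the vehicle range. Tfrc, the transferrin receptor, differed by 0.74 (adjusted p = 0.00231), Ctps1, a CTP synthase, by 0.56 (adjusted p = 0.000584) and Nme1, a nucleoside diphosphate kinase, by 0.33 (adjusted p = 0.0238). Also higher were the translation initiation helicase Eif4a1 (0.30) and the replication helicase subunit Mcm4 (0.27). Neither passed with 5 surrogate variables (adjusted p = 0.119 for Eif4a1 and 0.519 for Mcm4), and Mcm4 also missed the threshold without GSK932121A replicate 13 (adjusted p = 0.0521) or 16 (0.0509). Ldha, the lactate dehydrogenase subunit, and Cad, of pyrimidine synthesis, are also known targets and differed by 0.00 and 0.01. CACGTG lay in the windows of 7 of the 23 listed genes with a window (30.4%), and of 0 of the 5 that rose and had one.

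Of 10 measured genes that Myc is known to repress, 4 rose and 0 fell, with a median of 0.21, where 5.31% of all genes rose. With 5 surrogate variables 2 were called, when 603 of all 18166 genes were. Cdkn1a, the cell cycle inhibitor p21, was 8.27 ± 0.27 after GSK932121A and 6.75 ± 0.55 after vehicle (difference 1.52, limma adjusted p = 1.13e-06). Klf6, a zinc-finger factor, was 8.47 ± 1.03 after GSK932121A and 6.87 ± 0.19 after vehicle (3.03-fold, limma adjusted p = 0.000184, or 0.0139 by the Welch test). All 10 treated livers lay above the vehicle range for both. Gadd45a, a stress-induced growth arrest gene, differed by 1.45 (limma adjusted p = 0.000722, or 0.0222 by the Welch test). The phosphatase gene Dusp2 differed by 0.35 (limma adjusted p = 0.0076). CACGTG lay in the windows of 2 of the 10 listed genes with a window (20%), and both were among the 4 that rose.

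Of 23 measured targets of ChREBP and MondoA, 5 rose and 1 fell, with a median of 0.15, where 5.31% of all genes rose and 7.05% fell. With 5 surrogate variables 4 were called, when 603 of all 18166 genes were. Arrdc4, an arrestin-domain gene and one of the most direct MondoA targets, was 9.34 ± 0.58 after GSK932121A and 7.38 ± 0.32 after vehicle (difference 1.96, a 3.89-fold rise, limma adjusted p = 4.18e-08), with all 10 treated livers above the vehicle range. Its paralogue Txnip, the other classical glucose-responsive target of MondoA, was 8.83 ± 0.34 after GSK932121A and 8.94 ± 0.21 after vehicle and did not pass (difference -0.12, adjusted p = 0.58). Pklr, the liver pyruvate kinase gene in which the ChREBP site was defined, differed by 0.10 (adjusted p = 0.72).

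Other listed targets of this branch were mixed in direction. Bhlhe40, a clock-linked repressor, was 11.14 ± 0.41 after GSK932121A and 9.91 ± 0.36 after vehicle (difference 1.23, limma adjusted p = 2.7e-06), and Pnpla3, a lipid droplet protein, differed by 1.05 (adjusted p = 0.00358). Acaca, the acetyl-CoA carboxylase of fatty acid synthesis, and Slc2a2, the hepatocyte glucose transporter GLUT2, differed by 0.50 and 0.48. Acaca missed the threshold by the Wilcoxon test (adjusted p = 0.0585) and Slc2a2 with 5 surrogate variables (0.308). Mid1ip1, an activator of acetyl-CoA carboxylase, was 6.29 ± 0.33 after GSK932121A and 7.20 ± 0.33 after vehicle, with all 10 treated livers below the vehicle range (difference -0.91, adjusted p = 2.54e-05). Of the listed targets with a window, 2 of 20 (10%) held CACGTG, Arrdc4 and Bhlhe40, a share near that of all measured genes with a window (8.16%). No other form of a binding site of this branch was searched, so the share does not show that such sites were missing.

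**Figure D5:**
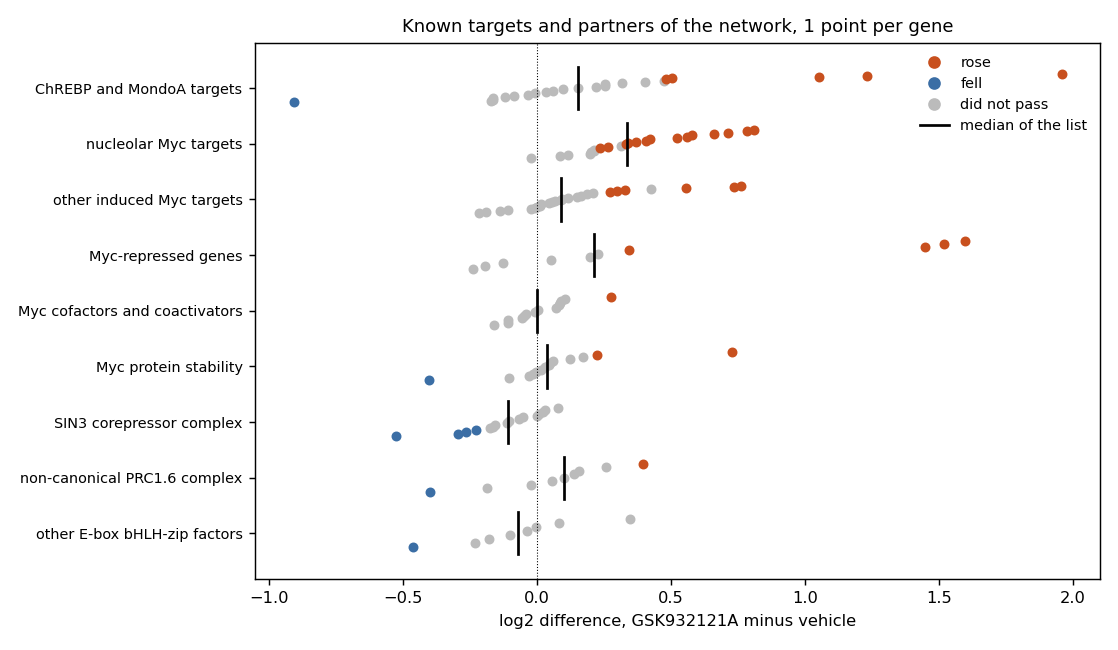
Log2 difference between GSK932121A and vehicle (x axis, GSK932121A minus vehicle) for each measured gene of 9 lists of network targets and partners, with genes that rose in orange, fell in blue and did not pass in grey, and the list's median as a bar. The nucleolar Myc targets lie furthest to the right by median (0.34), and the SIN3 complex has 4 falls and 0 rises.

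The SIN3 corepressor is the complex that Mxd proteins and Mnt bring to DNA. Of its 16 measured genes 0 rose and 4 fell, with a median of -0.11, where 7.05% of all genes fell. The 4 were Ing1, Ing2, Brms1l and Sin3a, and 0 were called with 5 surrogate variables. Ing1, a reader of methylated histone H3, was 5.69 ± 0.22 after GSK932121A and 6.21 ± 0.16 after vehicle (difference -0.52, limma adjusted p = 7.36e-05), with 9 treated livers below the vehicle range. Sin3a, the scaffold itself, was 6.62 ± 0.13 after GSK932121A and 6.85 ± 0.12 after vehicle (difference -0.23, adjusted p = 0.0149), with 7 treated livers below that range. Ing2 differed by -0.30 (adjusted p = 0.0177). Brms1l differed by -0.27 (adjusted p = 0.0359), a call that was lost without any 1 of 9 arrays (adjusted p up to 0.0755, without GSK932121A replicate 23).

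Of 14 measured genes that set the stability of Myc protein, 2 rose and 1 fell, with a median of 0.04, where 5.31% of all genes rose and 7.05% fell. Nothing is read from so small a count. Usp36, a nucleolar deubiquitinase of Myc, was 7.18 ± 0.34 after GSK932121A and 6.45 ± 0.14 after vehicle (difference 0.73, limma adjusted p = 2.09e-05), with 9 treated livers above the vehicle range. Huwe1, a ubiquitin ligase of Myc, differed by 0.22 (adjusted p = 0.00523). Ppp2r5a, a regulatory subunit of the phosphatase PP2A that targets Myc, was 8.40 ± 0.17 after GSK932121A and 8.80 ± 0.16 after vehicle (difference -0.40, adjusted p = 0.000473). Protein levels were not measured.

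In the remaining partner lists the calls were few, where 12.4% of all genes were called, and nothing is read from their counts. Of 14 measured Myc cofactors and coactivators, 1 rose, the acetyltransferase gene Kat5 (difference 0.28, limma adjusted p = 0.0122), and 0 fell. Of 9 measured genes of the Polycomb complex that holds Mga, Yaf2, a RING1-binding subunit, rose (0.40, adjusted p = 0.00343) and Tfdp2, an E2F partner, fell (-0.40, adjusted p = 0.00621). Of 8 other bHLH-zip factors that bind E-boxes, Usf1 alone passed and was lower, at 5.78 ± 0.16 after GSK932121A and 6.25 ± 0.19 after vehicle (difference -0.46, adjusted p = 0.000173). This last count was 2 with quantile or cyclic loess normalisation and 3 among genes with a mean log2 value of at least 5.

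Among the genes of these lists named above, the calls of Nop58, Tfrc, Eif4a1, Mcm4, Slc2a2, Gadd45a, Dusp2, Pnpla3, Kat5, Huwe1, Ppp2r5a, Ing1, Ing2, Brms1l, Sin3a, Tfdp2, Yaf2 and Usf1 were lost with 5 surrogate variables. The differences of Klf6 (0.58), Wdr43 (0.49), Gnl3 (0.52) and Usp36 (0.37) were then smaller by more than 1.5 times and still passed.

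Markers of other cells were read on the same arrays. Of 9 cycling cell markers 0 rose and 0 fell, and their mean lay between 4.52 and 5.13 after GSK932121A, against 4.35 to 4.93 after vehicle. None of 9 neutrophil, 9 lymphocyte, 8 stellate cell or 6 cholangiocyte markers passed, where 12.4% of all genes were called. Nothing is read from the counts of markers. Many cycling cell, neutrophil, lymphocyte and cholangiocyte markers averaged below the array medians, where RMA compresses differences. A missing call there does not show that a cell type was unchanged. Macrophage markers averaged 7.74 to 8.27 after GSK932121A, against 7.59 to 8.32 after vehicle, and endothelial markers 7.53 to 7.79 after GSK932121A, against 7.40 to 7.67 after vehicle. Neutrophil markers averaged 3.70 to 4.35 after GSK932121A, against 3.62 to 3.98 after vehicle. The hepatocyte marker Cps1 rose by 0.32 (limma adjusted p = 0.000789, 1 of 8 markers), the macrophage marker Cd163 by 0.36 (adjusted p = 0.00461, 1 of 10) and the endothelial marker Lyve1 by 0.22 (adjusted p = 0.0201, 1 of 6). Of all genes, 5.31% rose. With 5 surrogate variables Cd163 (adjusted p = 0.2) and Lyve1 (0.0922) no longer passed. The part of these markers in the changes of the network was not tested.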

How the data were processed

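Liver RNA of 22 rats was measured on 1 Affymetrix array each. The deposited values are log2 values from RMA, per the submitters' processing notes, with its software and version not given in the sources used here. RMA removes shifts common to all genes, so total RNA cannot be compared. Groups and replicate numbers come from the labels, which give no batch, litter or date. Precision is limited by the number of arrays.

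Of 36685 probe sets, 18511 had 1 symbol in the platform annotation, 575 several and 17599 none. For 18394, the Entrez identifier matched the gene table, and 0 symbols changed. Where a gene had several probe sets (291 genes) the one with the highest mean was used, giving 18166 genes, with 0 left out for low values. Genes were compared with limma 3.58.1 in R 4.3.3 (lmFit and eBayes, no trend, not robust, group alone), with Benjamini-Hochberg adjustment over all genes, two-sided, at 0.05. The fit was tested on simulated data. Pairs and correlations used permutation tests in Python 3.11.15 with scipy 1.17.1. Members, lists, tests and pairs were chosen with earlier results of these data known.

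Named were all network genes and, per list, the 4 called genes with the largest absolute difference and the largest opposite call. Acaca, Slc2a2, Txnip, Pklr, Eif4a1, Mcm4, Ldha, Cad and the markers were added after their values were seen. Alternatives were median centring, renewed quantile and cyclic loess normalisation, a filter at a mean of 5, mean probe sets, the Welch and Wilcoxon tests across all genes, array weights, robust eBayes with an intensity trend, 5 surrogate variables (limma wsva), and each array left out.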

Additional observations from a re-analysis of the deposited data

Results flagged for a closer look

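Some values stood apart from the rest of the GSK932121A group by a gap test. Ing2, a SIN3 complex gene, was 5.43 in replicate 18, the lowest of 10, and the nearest other treated liver was at 5.78, a gap of 0.513 of the range of the group. Txnip was 9.66 in replicate 23, the highest, with the nearest other at 8.94 (0.558 of the range). Cad was 6.40 in replicate 20, the highest, with the nearest other at 6.08 (0.541). Alb was 13.28 in replicate 14, the lowest, with the nearest other at 13.36 (0.538). Of 50 genes tested in this group, 4 had such a value, and chance alone marks about 1 in 20. No network gene was among them in the treated livers. The cutoffs used covered groups of up to 10, so the 12 vehicle livers were not tested. There, Myc was 6.02 in vehicle replicate 10, the lowest, with the nearest other at 6.40. Without replicate 18, Ing2 still passed (limma adjusted p = 0.0361).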

How the results depend on the processing

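Calls of the 7 measured members held in 154 of 154 fits with 1 array left out and in 67 of 69 fits under the other alternatives. With 1 array left out, the difference ranged from 1.49 to 1.73 for Myc (adjusted p at most 1.77e-05), from 0.33 to 0.40 for Mnt (at most 0.00691), from -0.33 to -0.29 for Mxd4 (at most 0.00532) and from -0.07 to 0.02 for Mxd1. The 2 lost calls came with 5 surrogate variables, where Mxd4 was -0.26 (adjusted p = 0.0676), Mnt was 0.13 (0.509) and Mxi1 was -0.30 (0.0536). In that fit, 1 member, 0 other network genes, 4 ChREBP and MondoA targets, and 5 nucleolar, 3 other induced and 2 repressed Myc targets were called. Of the partner lists, 1 stability gene and 0 cofactor, SIN3, PRC1.6 or other E-box genes were called, and of all genes 603. Calls among other E-box factors numbered 2 after quantile and after cyclic loess normalisation, 3 with the filter at a mean of 5, and 1 to 3 with 1 array left out. The other network, list and marker genes named kept their side of the threshold in 400 of 428 fits, and in 935 of 946 with 1 array left out, the exceptions being 9 for Brms1l and 2 for Mcm4. Brms1l also missed the threshold with quantile (0.0535), loess (0.0534), Welch (0.0656) and Wilcoxon (0.0794) alternatives, and Mcm4 with Welch (0.059) and Wilcoxon (0.0585), where the cause was not tested. Pair differences kept their calls under loess and as medians. With the filter at a mean of 5, Mxd3 and Mycn had no value. The planned pair of Mlxipl and Mlxip, and the genes most like Mlxipl, were not run. No paired analysis was possible because the groups share no replicate numbers.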

Other observations

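Within groups, the Myc value was also set against the mean of its induced target lists and of the ChREBP and MondoA targets. This comparison was added after the data were seen (6 relations, permutation tests with 100000 resamples). None passed. For the 22 nucleolar and ribosome biogenesis targets, Pearson r was 0.544 in the GSK932121A livers (permutation p = 0.102, adjusted p = 0.537, Spearman rho = 0.648, permutation p = 0.0493, adjusted p = 0.24, n = 10), and 0.274 without the 2 livers farthest from the Myc median. In the vehicle livers r was 0.189 (permutation p = 0.579, adjusted p = 0.841, rho = 0.531, permutation p = 0.0799, adjusted p = 0.24, n = 12), and 0.575 without the 2 farthest. For the 26 other induced targets, r was 0.081 after GSK932121A and -0.356 after vehicle, and for the 23 ChREBP and MondoA targets it was 0.074 after GSK932121A and 0.384 after vehicle.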
